A study of Arabidopsis thaliana with 12 samples.

Results

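The 26S proteasome subunit genes are the genes for the 20S core (alpha and beta rings), the RPT ATPases and the RPN subunits of the regulatory particle. They were chosen as a list of 44 Arabidopsis loci by subunit name, without use of expression values. Of these, 25 were in the deposited table of 16947 loci, and all 25 passed the filter on low values (a log2 value of at least 4 on 3 or more of 12 arrays) that left 9889 loci for testing. The 25 comprised 6 of 12 alpha subunits, 4 of 11 beta subunits, 6 of 8 RPT ATPases and 9 of 13 RPN subunits. The other 19 listed loci were not analysed here, and they include every locus listed for the catalytic beta subunits PBA, PBB and PBE. RefSeq gave a gene name for 23 of the 25. AT2G32730 and AT1G04810, both listed as RPN subunits, are called by their loci.

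The 26S proteasome degrades proteins that carry chains of ubiquitin. Proteolysis takes place inside the beta rings of the core, the alpha rings gate the way in, and the regulatory particle binds ubiquitin chains, removes them and unfolds the substrate with its ring of RPT ATPases. In Arabidopsis many subunits are encoded by pairs of paralogs, and the NAC transcription factors NAC053 and NAC078 are known to induce subunit genes when proteasome activity is impaired.

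RNA of whole Col-0 seedlings, aged 5 days, was hybridised to 12 expression arrays, in 4 groups of 3 replicates that the labels call biological. The groups were gmi1-1 irradiated, gmi1-1 untreated, wild type irradiated and wild type untreated, where gmi1-1 is a line deficient in GMI1 and irradiated seedlings received 100 Gy of gamma radiation and were collected 1.5 h later. The design asks whether GMI1, a gene that depends on the kinase ATM, takes part in the transcriptional response. How many seedlings went into a sample, and whether untreated plates were handled like the irradiated ones, is not stated in the labels.

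Some libraries stood apart, which bears on every gmi1-1 result. GMI1 was at 1.24 to 1.66 on the 6 gmi1-1 arrays, against 9.97 to 10.92 in irradiated and 1.87 to 2.53 in untreated wild type. BRCA1, a damage-induced repair gene used as a check of treatment, had a log2 value of 10.56 in gmi1-1 irradiated replicate 1 and 10.54 in the library labelled gmi1-1 untreated replicate 1. In the other untreated gmi1-1 arrays it was at 2.70 and 2.90, so the library labelled gmi1-1 untreated replicate 1 goes against its label. Each of these 2 libraries was also the nearest array to the other (Pearson r 0.994 over all 16947 loci in the table). The library labelled gmi1-1 untreated replicate 1 was also the nearest array to wild type untreated replicate 1 (0.990) and wild type irradiated replicate 1 (0.992). The gmi1-1 irradiated replicate 3 array had a narrower spread (interquartile range 4.70, against 5.28 to 5.83 on the others) and a GAPDH 5' minus middle probe set difference of -1.30 (others -0.47 to -0.17). Results on gmi1-1 are given with all 12 arrays as labelled and without the 2 libraries labelled gmi1-1 replicate 1. PSBO1, a photosystem gene, was between 13.5 and 14.3 on every array, and it was the only 1 of 6 listed shoot genes in the table. Of the root markers 5 of 6 passed the filter, and 0 of 2 seed storage genes in the table did.

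Most 26S proteasome genes varied little across the 12 arrays. The range from the lowest to the highest array had a median of 0.67 on the log2 scale over the 25 genes, against 1.35 over all tested loci. It was under 1 for 18 of 25 (72%), against 26.3% of all tested loci. The genes with the widest ranges were PAD2 (2.69), RPT4A (1.65) and AT1G04810 (1.47). That of RPT4A rested on gmi1-1 irradiated replicate 3, at 8.14, since the other 11 arrays lay between 9.10 and 9.79. The smallest range of any of the 25 was 0.37. The probe sets of the 25 genes were also brighter, with a median log2 level of 10.5 against 7.09 over all tested loci, and the part of signal level in their narrow ranges was not tested.

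**Figure D1:**
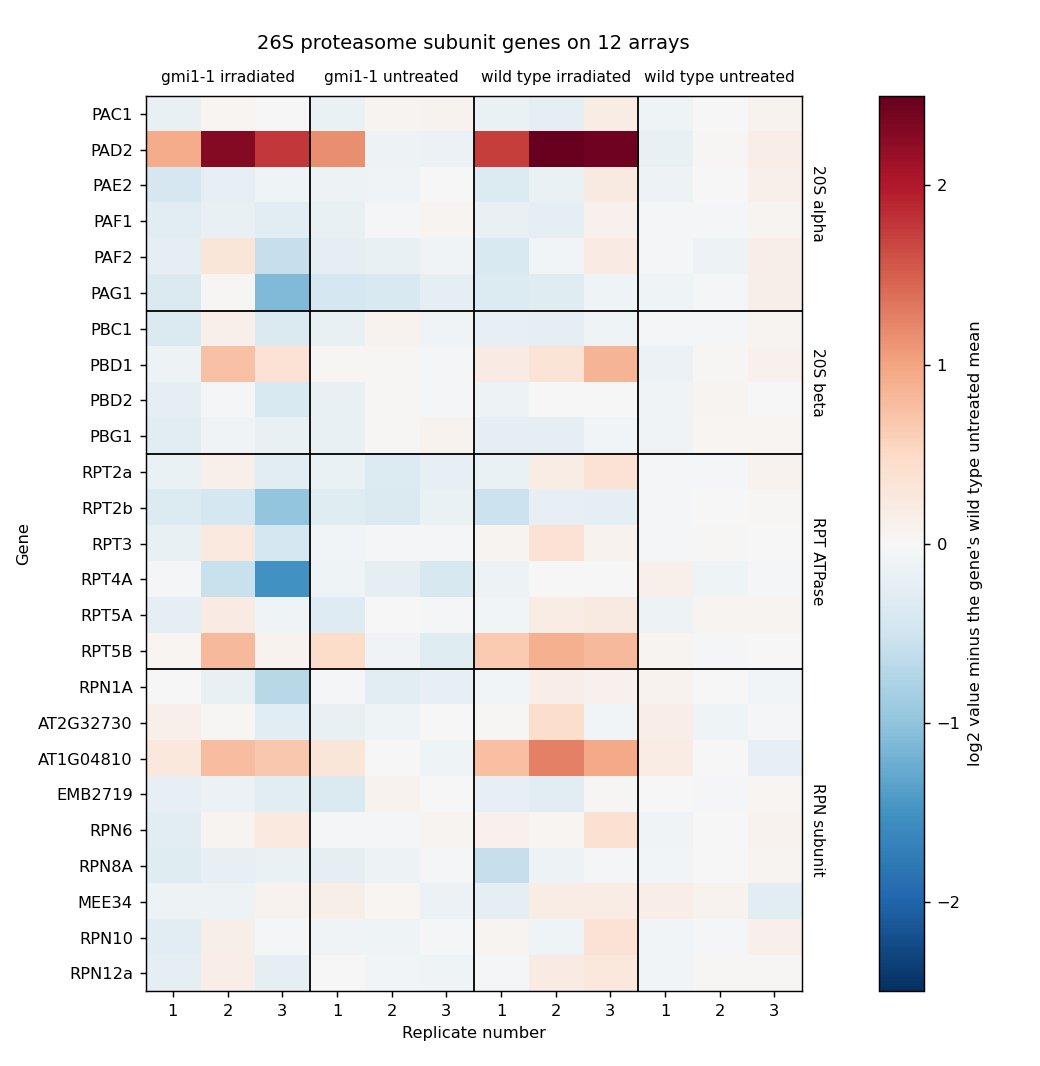
Log2 value of each of the 25 genes on each of the 12 arrays, minus the gene's own mean in untreated wild type (colour scale; red is higher, blue is lower). Columns are arrays by group and replicate number, rows are genes by role. PAD2 is red in all irradiated arrays and in the library labelled gmi1-1 untreated replicate 1, AT1G04810 and RPT5B are paler, and the blue cells of gmi1-1 irradiated replicate 3 include RPT4A and PAG1.

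After irradiation of wild type, 2 of the 25 genes rose and 0 fell at an adjusted p under 0.05 in limma. Of all tested loci, 3.21% rose and 1.33% fell (4.54% in either direction). The genes that rose were PAD2, an alpha subunit of the core, by 2.22 on the log2 scale, and AT1G04810, listed as an RPN subunit, by 0.99. Without the 2 libraries labelled gmi1-1 replicate 1, which enter only the shared estimate of the spread, 2 of the 25 rose (4.14% of all tested loci), and without gmi1-1 irradiated replicate 3 as well, 3 rose (4.55%). The median change of the 25 was 0.05, with 13 above 0 and 12 below, against a median of -0.11 over all tested loci. With quantile normalization the median of the 25 was 0.18, and with median centring of the arrays it was 0. The change was under 0.5 in size for 22 of the 25 (88%), against 69.3% of all tested loci. In whole seedlings a change in the transcript level of cells and a change in the make-up of the cells cannot be told apart.

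Among the 20S alpha subunits, which form the outer rings that gate the core, 1 of 6 rose. PAD2 (AT5G66140) had log2 values of 11.28, 12.07 and 12 in irradiated wild type, against 9.38, 9.58 and 9.72 in untreated wild type. Every irradiated array lay above every untreated array by a wide margin. Its means were 11.78 ± 0.44 and 9.56 ± 0.17 (SD, n = 3 each), a 4.67-fold rise (log2 change 2.22, SE 0.41, limma adjusted p = 0.0108). The call was lost without wild type irradiated replicate 2 (2.08, adjusted p = 0.0607). Its paralog PAD1 is among the loci not analysed here.

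The other alpha subunits had changes between -0.26 and -0.08 in wild type. PAG1 (AT2G27020) had 10.40, 10.44 and 10.63 in irradiated wild type, against 10.64, 10.70 and 10.90 in untreated wild type. All irradiated arrays lay below all untreated ones, but the change of -0.26 did not pass the test (SE 0.26, limma adjusted p = 0.624). PAC1 changed by -0.08, PAE2 by -0.09, and the paralogs PAF1 and PAF2 by -0.11 and -0.08. Over all 12 arrays PAC1 stayed between 10.87 and 11.29, PAE2 between 9.29 and 9.94, PAF1 between 10.51 and 10.89 and PAF2 between 8.72 and 9.60.

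None of the 4 beta subunits, which belong to families without catalytic sites, passed the test in wild type (smallest limma adjusted p = 0.344). PBD1 (AT3G22630) had 10.81, 10.95 and 11.46 in irradiated wild type, against 10.46, 10.64 and 10.72 in untreated wild type. The groups did not overlap, but irradiated replicate 1 stood close to the highest untreated array. PBD1 had a change of 0.47 (SE 0.25, limma adjusted p = 0.344). PBD2 (AT4G14800), its paralog, was at 10.42, 10.54 and 10.56 in irradiated wild type, against 10.46, 10.62 and 10.55 in untreated wild type, and these groups overlapped. PBC1 and PBG1 both had a change of -0.18.

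The RPT subunits are the ATPases that unfold substrates, and 0 of 6 passed the test in wild type. RPT5B (AT1G09100) came closest, with 7.74, 7.98 and 7.89 in irradiated wild type, against 7.15, 7.03 and 7.07 in untreated wild type. The groups were well apart, and the change of 0.79 had a 95% interval from 0.23 to 1.34 (SE 0.25, limma adjusted p = 0.116). With the 2 libraries labelled gmi1-1 replicate 1 left out, its adjusted p was 0.0628, and with gmi1-1 irradiated replicate 3 left out as well it was 0.0163. RPT5A, the paralog of RPT5B, changed by 0.12. RPT2a, known for a role in maintaining the root meristem, changed by 0.13 and its paralog RPT2b by -0.33 (limma adjusted p = 0.433). RPT3 was at 0.17 and RPT4A at -0.04.

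Among the RPN subunits, 1 of 9 rose. AT1G04810 had 9.03, 9.54 and 9.22 in irradiated wild type, against 8.47, 8.29 and 8.07 in untreated wild type. The irradiated arrays all lay above the untreated ones, with means of 9.26 ± 0.26 and 8.28 ± 0.20 (SD, n = 3 each). That is a 1.98-fold rise (log2 change 0.99, SE 0.22, limma adjusted p = 0.0271). This call depended on single libraries: the adjusted p was 0.117 without wild type irradiated replicate 2, 0.0709 without irradiated replicate 3, 0.0998 without untreated replicate 2 and 0.136 without untreated replicate 3.

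The remaining 8 RPN genes had changes from -0.25 to 0.18. RPN1A, a large scaffold subunit that binds ubiquitin shuttle proteins, was at 0.07, AT2G32730 at 0.13 and RPN10, a ubiquitin receptor of the regulatory particle, at 0.10. Of the lid subunits, RPN6 was at 0.18 (11.43, 11.36 and 11.71 in irradiated wild type, against 11.23, 11.33 and 11.40 in untreated wild type). RPN12a, a lid subunit known from cytokinin responses, was at 0.13. RPN8A was at -0.25, MEE34, named from a screen for arrested embryos, at 0.05, and EMB2719, named as an embryo-defective gene, at -0.15. In each of these 8 genes the irradiated and untreated wild type arrays overlapped.

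The groups did not overlap for 8 of the 25 genes in wild type. The irradiated arrays lay above the untreated ones for 5 (PAD2, AT1G04810, RPT5B, PBD1 and RPT3), against 10.8% of all tested loci. They lay below for 3 (PAG1, PBC1 and RPT2b), against 17.3% of all tested loci. For the 23 genes that did not pass, limma's 95% intervals of the change ran from -0.82 to 1.34, with a median distance of 0.43 from the estimate to either bound. For 21 of the 23 the interval lay within 1 of 0 on the log2 scale, so a change of 2-fold or more lay outside it, and the exceptions were RPT5B and PBD1.

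**Figure D2:**
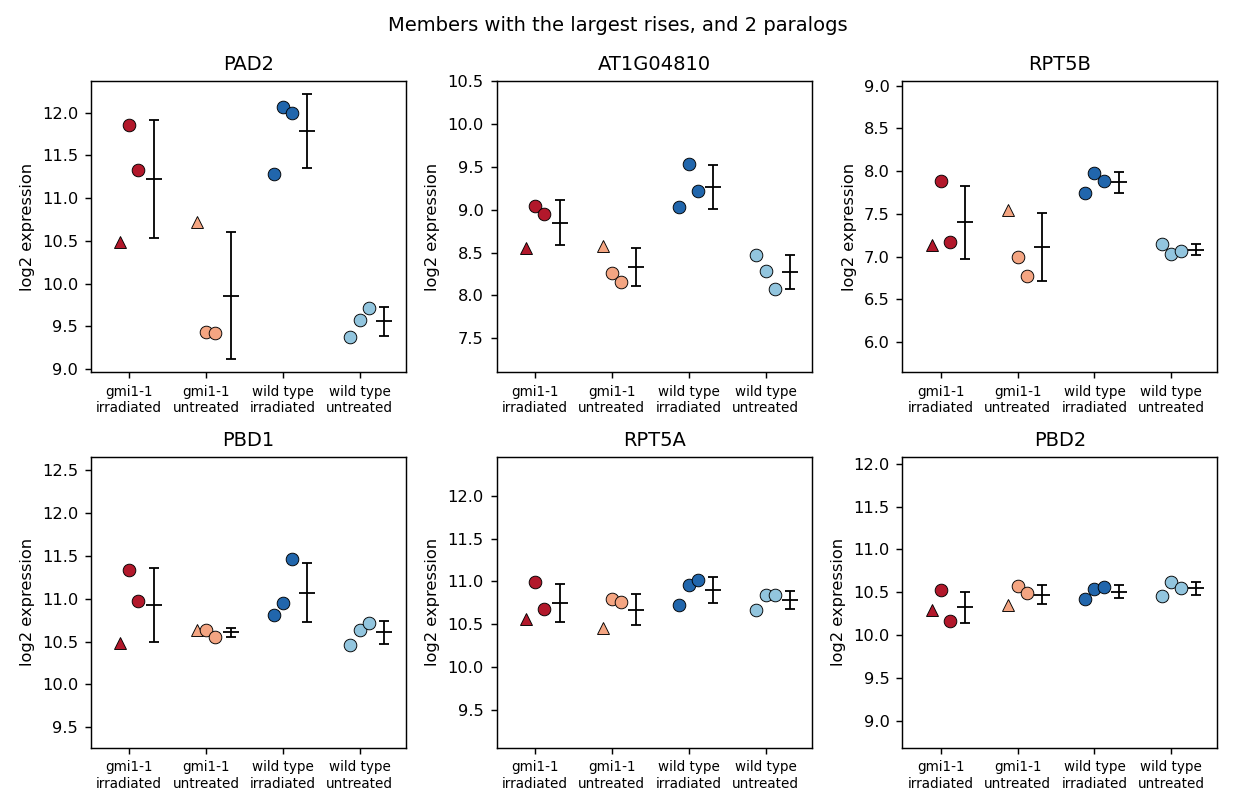
Log2 value on each array of PAD2, AT1G04810, RPT5B and PBD1 and of the paralogs RPT5A and PBD2, by group. Points are arrays in replicate order, triangles are the libraries labelled gmi1-1 replicate 1, and bars are the mean ± SD of 3 arrays; all axes span at least 3 log2 units. The triangle of gmi1-1 untreated lies above both circles of that group for PAD2 (10.72 against 9.44 and 9.42).

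In gmi1-1 with all 12 arrays as labelled, 0 of 25 genes passed the test, and of all tested loci 0% did. At an unadjusted limma p under 0.05 there were 2 of the 25 and 1306 of 9889 loci. PAD2 had 10.49, 11.86 and 11.33 in irradiated gmi1-1, against 10.72, 9.44 and 9.42 in untreated gmi1-1. Untreated replicate 1 was above irradiated replicate 1, and replicates 2 and 3 of the groups were well apart. The change was 1.37 (SE 0.41, limma adjusted p = 0.244). AT1G04810 had 8.55, 9.05 and 8.95 in irradiated gmi1-1, against 8.58, 8.26 and 8.16 in untreated gmi1-1, with the same overlap at replicate 1 (change 0.52, SE 0.22, limma adjusted p = 0.359). RPT2b, the gene with the third smallest p, was at -0.32 (SE 0.21, limma adjusted p = 0.503). Without gmi1-1 irradiated replicate 3, the change of RPT2b was -0.13. The irradiated arrays lay above the untreated ones for 0 of the 25 (1.64% of all tested loci) and below for 0 (10.6%).

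Without the libraries labelled gmi1-1 replicate 1, with 2 arrays remaining per gmi1-1 group, 1 of 25 genes rose and 0 fell, against 2.46% and 5.13% of all tested loci. That gene was PAD2, which rose by 2.17 (SE 0.32, limma adjusted p = 0.00245). AT1G04810 was at 0.79 (limma adjusted p = 0.0912), RPT5B at 0.64 (0.183) and PBD1 at 0.56 (0.246). RPT4A was at -0.71 (limma adjusted p = 0.185) and RPT2b at -0.46 (0.302). With gmi1-1 irradiated replicate 3 left out as well, PAD2 again was the only one of the 25 to rise (2.43, limma adjusted p = 0.00884), against 2.15% of all tested loci, and RPT4A and RPT2b were at -0.23 and -0.19. PAD2 also passed when only the library labelled gmi1-1 irradiated replicate 1 (1.73, adjusted p = 0.0475) or only that labelled gmi1-1 untreated replicate 1 (1.80, adjusted p = 0.0254) was left out.

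**Figure D3:**
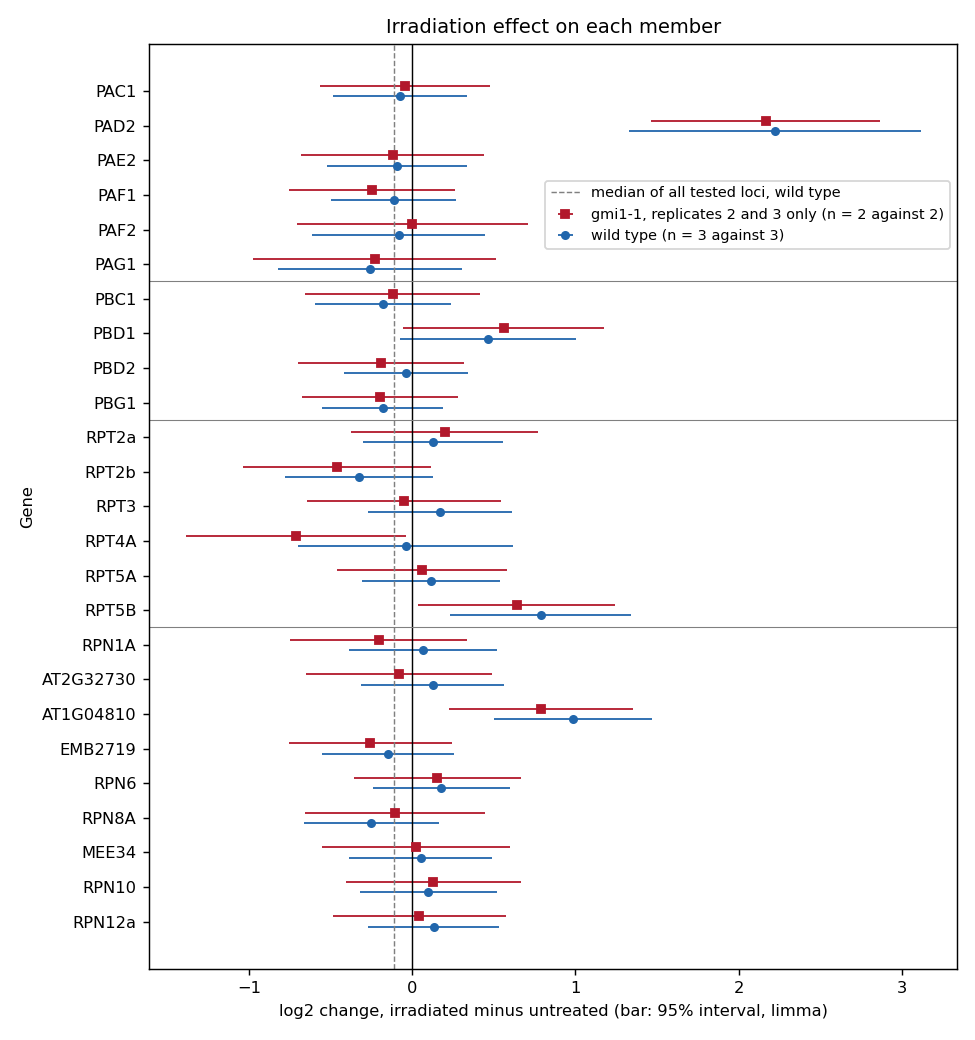
Log2 change after irradiation (x axis, irradiated minus untreated) of each of the 25 genes, with limma's 95% interval, in gmi1-1 from replicates 2 and 3 only (red squares) and in wild type (blue circles). The dashed line marks the median of all tested loci in wild type, -0.11. PAD2 stands at 2.17 and 2.22, and most other intervals include 0.

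The libraries labelled gmi1-1 replicate 1 stood between the levels of the other replicates for PAD2. On a scale where 0 is the mean of untreated and 1 the mean of irradiated gmi1-1 replicates 2 and 3, PAD2 stood at 0.49 in the library labelled irradiated and at 0.60 in the library labelled untreated. AT1G04810 stood at 0.43 and 0.47, RPT5B at 0.39 and 1.03, and PBD1 at -0.21 and 0.06 on the same scale. BRCA1 stood at 0.92 in each. The ends of the scale lay close for RPT5B (6.89 and 7.53) and PBD1 (10.6 and 11.2), against 2.80 and 11.2 for BRCA1. The upper end of RPT5B is the mean of 7.89 and 7.17, so such positions are uncertain. For these 4 proteasome genes the library labelled untreated thus stood higher than the library labelled irradiated.

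Averaged over both genotypes with all 12 arrays, 2 of 25 genes rose and 0 fell, against 4.09% and 6.29% of all tested loci. PAD2 rose by 1.80 (SE 0.29, limma adjusted p = 0.00342) and AT1G04810 by 0.75 (SE 0.16, limma adjusted p = 0.0123). RPT5B was at 0.54 (SE 0.18, limma adjusted p = 0.0778). Without the libraries labelled gmi1-1 replicate 1, 3 of 25 rose, against 5.48% of all tested loci. With gmi1-1 irradiated replicate 3 left out as well it was again 3, against 5.32%. The third was RPT5B, at 0.71 (SE 0.18, limma adjusted p = 0.0184), and it also passed when only the library labelled gmi1-1 untreated replicate 1 was left out (0.65, adjusted p = 0.0278). The change had the same sign in both genotypes for 20 of 25 genes (80%), against 77.3% of all tested loci.

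The difference in the irradiation effect between the genotypes passed an adjusted p of 0.05 in limma for 0 of the 25 genes (against 0.0101% of all tested loci). An unadjusted limma p under 0.05 was found for 0 of 25, against 184 of 9889 tested loci. The difference, gmi1-1 minus wild type, was -0.86 for PAD2 (95% interval -2.12 to 0.40, adjusted p = 1), -0.47 for AT1G04810 (-1.16 to 0.22) and -0.50 for RPT5B (-1.28 to 0.29). Without the libraries labelled gmi1-1 replicate 1 these differences were -0.06 (-0.96 to 0.84), -0.20 (-0.93 to 0.53) and -0.15 (-0.93 to 0.63). These intervals remain wide, and a test that did not pass does not show equal responses.

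Between gmi1-1 and wild type, 0 of 25 genes passed the test untreated, irradiated or over both treatments (0.0101% of all tested loci in each). Untreated, the smallest p-values belonged to PAG1 at -0.35 (SE 0.26), RPT2b at -0.27 (SE 0.21) and RPT2a at -0.23 (SE 0.20), all with a limma adjusted p = 1. Irradiated, RPT4A (AT5G43010), an ATPase subunit, had 9.60, 9.10 and 8.14 in gmi1-1, against 9.53, 9.65 and 9.66 in wild type. Replicate 3 of irradiated gmi1-1 was far below all other arrays, and replicate 1 lay among those of wild type. The difference of RPT4A was -0.67 (SE 0.30, limma adjusted p = 0.628), and -0.26 without gmi1-1 irradiated replicate 3. AT1G04810 was at -0.41 and RPT5B at -0.47 (both limma adjusted p = 0.631). Over both treatments RPT4A was at -0.46, RPT2b at -0.27 and RPN1A at -0.26 (all limma adjusted p = 0.798), and -0.26, -0.17 and -0.16 without gmi1-1 irradiated replicate 3. At an unadjusted p under 0.05 in limma there were 0 of 25 untreated, 1 irradiated and 0 over both. Of 9889 tested loci there were 42, 764 and 559. Without the 2 libraries labelled gmi1-1 replicate 1, 0 of 25 again passed in each of these comparisons. The counts at an unadjusted p under 0.05 in limma were 0, 2 and 2 of the 25, against 195, 1362 and 1091 of 9889 tested loci. RPT4A was then at -0.99 irradiated (SE 0.28, limma adjusted p = 0.199) and -0.66 over both treatments (0.247), and RPN1A at -0.51 (0.351) and -0.37 (0.42). With gmi1-1 irradiated replicate 3 left out as well, which left 1 irradiated gmi1-1 array, RPT4A was at -0.51 irradiated and -0.42 over both treatments.

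Paralogs were paired by matching gene names among the proteasome subunit genes analysed, which gave 4 pairs. Matching by name cannot place genes called by their loci, AT1G04810 (0.99 in wild type) and AT2G32730 (0.13), or by unrelated names, such as MEE34 (0.05). It also left out RPN1A (0.07) and RPN1B (0.19), since RPN1B was on a related list. Whether further pairs are present was not tested. Some of the 4 pairs changed by unlike amounts in wild type. RPT5B was at 0.79 and RPT5A at 0.12, a gap of 0.67. PBD1 was at 0.47 and PBD2 at -0.04, a gap of 0.50. RPT2a was at 0.13 and RPT2b at -0.33, a gap of 0.45, while PAF1 and PAF2 differed by 0.03. In gmi1-1 without the libraries labelled replicate 1, RPT5B was at 0.64 and RPT5A at 0.06, PBD1 at 0.56 and PBD2 at -0.19, RPT2a at 0.20 and RPT2b at -0.46, and PAF1 at -0.25 and PAF2 at 0. The order within the RPT5, PBD and RPT2 pairs was that seen in wild type. Differences within pairs were not tested, and whether probes of a pair share sequence is not stated in the files.

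RPT5A had 10.72, 10.96 and 11.01 in irradiated wild type, against 10.66, 10.84 and 10.84 in untreated wild type. The groups of RPT5A overlapped, unlike those of RPT5B. RPT2b had 8.62, 8.96 and 8.94 in irradiated wild type, against 9.12, 9.18 and 9.20 in untreated wild type. All of the irradiated arrays lay lower for RPT2b, whereas those of RPT2a overlapped (10.08, 10.43 and 10.61 in irradiated wild type, against 10.22, 10.19 and 10.33 in untreated wild type).

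The 25 genes varied together to some degree across arrays. The median Pearson r over their 300 pairs was 0.37 across 12 arrays and 0.36 after group means were removed, against 0.20 and 0.17 between one of the 25 and any tested locus. Within the 20S core (45 pairs) the medians were 0.45 and 0.53, and within the regulatory particle (105 pairs) 0.34 and 0.25. These are descriptions over 12 arrays that share array-wide intensity and normalization. The genes nearest to the mean of the 25 were RPN12a (r 0.96 across the 12 arrays) and RPT2a (0.94), and PBG1 was the least like it (0.06). That mean includes the gene itself. Against the mean of the others, r was 0.956 for RPN12a, 0.928 for RPT2a and 0.023 for PBG1.

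The arrays also differed in position. The median deviation of the 25 genes from their own 12-array means was highest in wild type irradiated replicate 3, at 0.21, where 10 of the 25 genes had their highest value (8.46% of all tested loci had theirs there). It was lowest in gmi1-1 irradiated replicate 3, at -0.17, and gmi1-1 irradiated replicate 1, at -0.16. On gmi1-1 irradiated replicate 3 all tested loci had a median deviation of -0.46, and 46.0% of them had their lowest value there, against 8 of the 25 genes (32%). On gmi1-1 irradiated replicate 1, 7 of the 25 (28%) had their lowest value, against 6.89% of all tested loci.

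**Figure D4:**
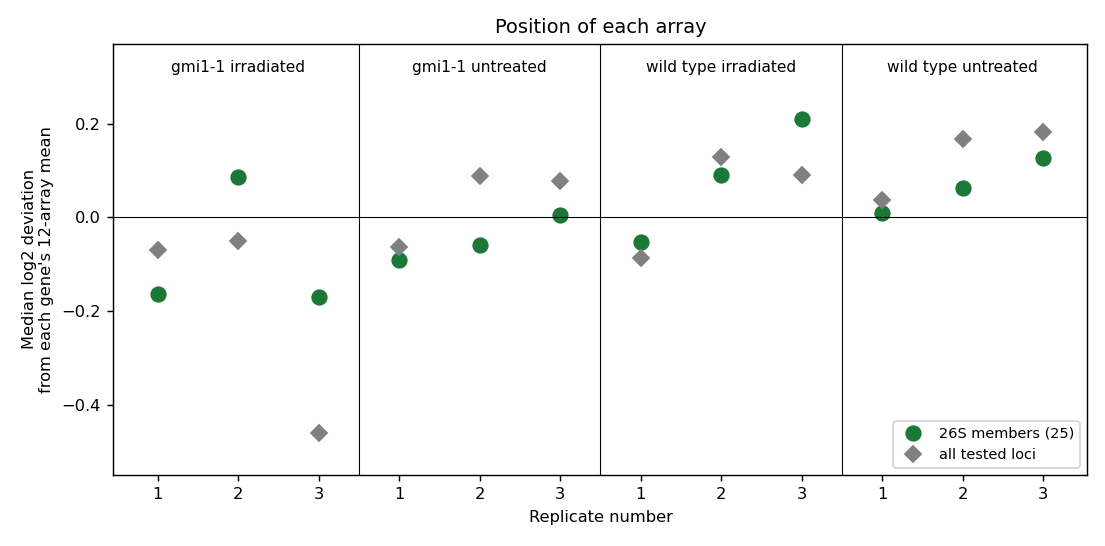
Median log2 deviation from each gene's own 12-array mean (y axis) on every array, for the 25 genes (green circles) and all tested loci (grey diamonds), by group and replicate number. All tested loci stand at -0.46 on gmi1-1 irradiated replicate 3, where the 25 genes stand at -0.17, and the 25 genes are highest on wild type irradiated replicate 3, at 0.21.

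Among tested loci outside the list, the 10 whose values across the 12 arrays were most like the mean of the 25 genes had Pearson r from 0.907 to 0.989. They were the transporter gene ABCG5 (0.989), the small GTPase gene RHA1 (0.961), the chorismate mutase gene CM2 (0.943), AT3G06410 (0.939) and the glucosidase gene PEN2 (0.931), followed by ROS3 (0.926), AT3G52870 (0.923), AT3G15610 (0.918), EMB1873 (0.912) and AT4G34180 (0.907). They are the highest of 9864 correlations over 12 arrays that share array-wide shifts. None of the 10 passed the test for irradiation in wild type (limma adjusted p from 0.252 to 0.792).

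Other genes of the ubiquitin and proteasome system were taken from lists made by name. The lists were chosen with earlier results of these data known, so their shares of risen genes are descriptions. Of the assembly and regulation list, 12 of 14 loci were in the table and tested, and 3 of 12 rose in wild type, with 0 falling (3.21% of all tested loci rose). NAC053 (AT3G10500), a transcription factor of the proteasome stress response, had 10.59, 11.47 and 11.16 in irradiated wild type, against 8.38, 8.44 and 8.57 in untreated wild type. The groups were far apart, and the rise was 2.61 (SE 0.44, limma adjusted p = 0.00877). AT3G15180 rose by 2.14 (SE 0.38, limma adjusted p = 0.0102), and UBP7, a ubiquitin-specific protease, by 1.07 (SE 0.27, limma adjusted p = 0.0438). The other NAC factor, ANAC078, was at -0.06, and PA200, an activator that caps the core, at 0.51 (limma adjusted p = 0.391).

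Without wild type irradiated replicate 2, NAC053 (2.41, adjusted p = 0.0512) and AT3G15180 (1.90, adjusted p = 0.0581) lost their calls. UBP7 lost its call when any of the 6 wild type arrays, or gmi1-1 untreated replicate 2 or 3, was left out (adjusted p from 0.0513 to 0.175). In gmi1-1 as labelled 0 of the 12 passed. Without the libraries labelled gmi1-1 replicate 1, NAC053 rose by 2.57 (SE 0.31, limma adjusted p = 0.000611) and AT3G15180 by 1.67 (limma adjusted p = 0.0234), that is 2 of 12, against 2.46% of all tested loci.

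Of the ubiquitin receptors and shuttles, which bring ubiquitylated proteins to the proteasome, 6 of 10 were tested and 1 rose in wild type. DDI1 (AT3G13235) had 10.68, 11.02 and 10.94 in irradiated wild type, against 9.28, 9.47 and 9.45 in untreated wild type. The groups did not overlap, and the rise was 1.48 (SE 0.32, limma adjusted p = 0.0215). That call was lost without wild type irradiated replicate 2 or 3 or any untreated wild type replicate (adjusted p from 0.0657 to 0.0979). In gmi1-1 without the libraries labelled replicate 1, DDI1 rose by 1.42 (limma adjusted p = 0.0123). AtCDC48B, a paralog of the unfoldase gene CDC48, was at 1.04 (limma adjusted p = 0.234) and CDC48 at 0.07.

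The remaining lists gave no calls in wild type in limma. Of the other 26S subunits and paralogs, 4 of 12 were tested, with changes from -0.22 (DSS1(V)) to 0.19 (RPN1B). Of the COP9 signalosome, a complex related to the lid, 7 of 10 were tested, from -0.19 (CSN6A) to 0.02. Of ubiquitin and E1 genes, 3 of 7 were tested, from 0.01 (UBA 2) to 0.22 (UBQ4). Of the cytosolic heat shock genes, 6 of 10 were tested, from -1.22 to -0.52. The mean log2 level of these 6 genes was 8.57, 7.97 and 10.04 on the irradiated wild-type arrays, against 8.24, 10.48 and 10.37 on the untreated ones. Replicate 1 was low in both groups and replicate 2 only in the irradiated one. As a check of the treatment, 11 of 11 damage response markers rose in wild type, by a median of 6.72. These markers too were chosen with earlier results of these data known.

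**Figure D5:**
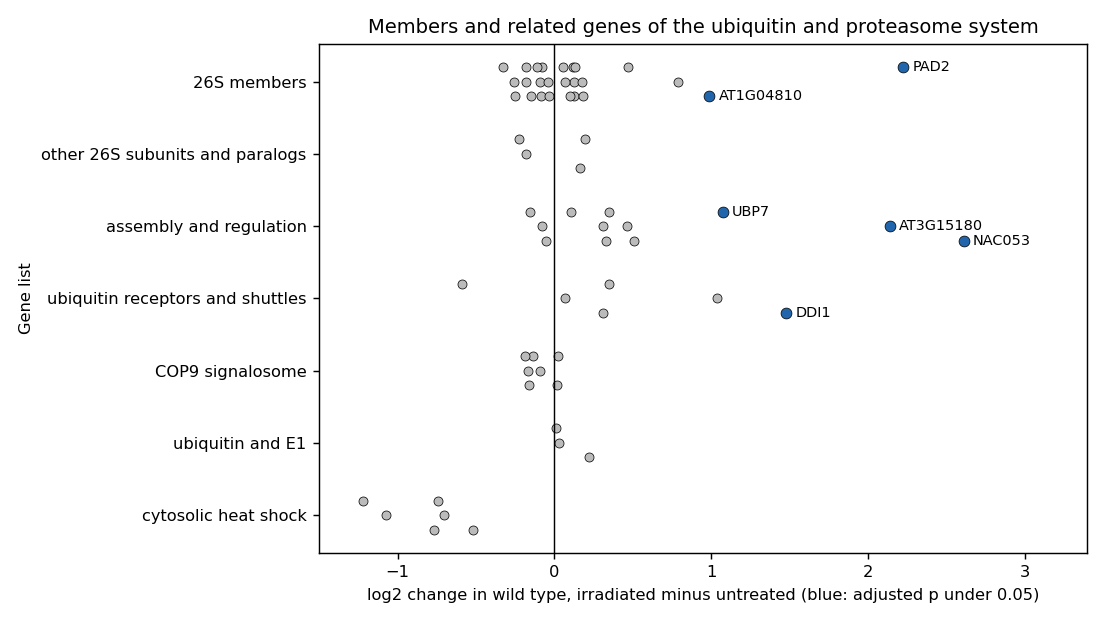
Log2 change in wild type, irradiated minus untreated (x axis), of every tested gene of 7 lists of the ubiquitin and proteasome system and heat shock. Each point is a gene, and blue points with names have a limma adjusted p under 0.05. PAD2 and AT1G04810 of the 26S list stand at 2.22 and 0.99, and NAC053, AT3G15180, UBP7 and DDI1 at 2.61, 2.14, 1.07 and 1.48.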

How the data were processed

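The deposited values are on the log2 scale and were made by the authors with GCRMA, per the submitters' processing notes. The version, the array type and the make-up of the probe sets are not stated. GCRMA models background from probe sequence and compresses values near it. Probe sets are named by locus, and RefSeq (TAIR10.1) gave the gene names. No further normalization was applied. With limma 3.58.1 in R 4.3.3 (lmFit, eBayes), 4 group means were fitted over all 12 arrays, with two-sided p-values and Benjamini-Hochberg adjustment over 9889 loci. P-values set differences of group means against limma's estimate of the spread between samples of a group. That estimate is shared by the 4 groups, so with all 12 arrays it includes the 2 libraries labelled gmi1-1 replicate 1. The procedure was tested on simulated data. The 25 genes may all be named, with full statistics for those called or, where fewer than 3 were, those with the 3 smallest p-values, and for related lists the 3 smallest in wild type, of which 1 gene is not reported here. The 44 loci were listed by subunit name, without use of expression values. Which genes and lists to report was chosen with earlier results of these data known. The main fit did not take replicate numbers as pairs in any comparison. Between irradiated and untreated arrays, deviations of same-numbered arrays correlated at 0.07 to 0.53 in wild type and 0.05 to 0.14 in gmi1-1. Between the genotypes such deviations correlated at 0.54 to 0.67 untreated and 0.17 to 0.41 irradiated. The statistics given for gmi1-1 against wild type are from the fit without pairs. A replicate block was fitted as well. There were 20 alternatives. The number of arrays limits the precision.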

Additional observations from a re-analysis of the deposited data

How the results depend on the processing

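In wild type 2 of the 25 genes rose, and 0 to 2 did with each array left out in turn. Of 9889 tested loci, 449 were called in wild type in either direction, and 111 to 591 with each array left out in turn. RPT5B also rose there with array weights (adjusted p = 0.0216) and with all 3 libraries left out (0.0163). In gmi1-1 as labelled 0 rose, against 1 (PAD2) with array weights or with the 2 libraries labelled gmi1-1 replicate 1 left out. With each array left out in turn it was 0 to 1. Of 9889 tested loci, 0 were called in gmi1-1 in either direction as labelled, 417 with array weights and 750 without those 2 libraries. With each array left out in turn, 0 to 327 were. Over both genotypes 2 rose, against 4 with quantile normalization and 4 with array weights. The share of all tested loci over both genotypes is not given for these settings. In wild type 478 of 9889 loci were called with quantile normalization and 1407 with array weights, so calls in general changed with the setting. With all 3 libraries left out, 1 irradiated gmi1-1 array remained. The difference in the irradiation effect then turned to 0.21 for PAD2 and 0.21 for RPT5B, and gmi1-1 against wild type, irradiated, to 0.02 for RPT5B. In wild type UBA1 turned to -0.023 with median centring and ran from -0.052 to 0.078 with arrays left out. UBA 2 turned to -0.043 with median centring and -0.076 with array weights, and ran from -0.075 to 0.165 with arrays left out. The cause of these turns was not tested. With the replicate block, 585 loci were called in wild type, against 449, PAD2 and AT1G04810 kept their calls (adjusted p = 0.02 and 0.0313) and AtCDC48B gained one (0.0281), with no other call of a named gene changed. The block also left 0 of the 25 called between gmi1-1 and wild type. In each genotype 4 of 6 samples correlated best with their own number. No filter and a filter at a log2 value of 6 changed no call of a named gene.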
